A study of Rattus norvegicus with 9 samples.

Results

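The genes described here are 10 calcium channels, stores and pumps of smooth muscle, which were chosen by name: the L-type channel subunits Cacna1c and Cacna1d, the inositol trisphosphate (IP3) receptors Itpr1, Itpr2 and Itpr3, the ryanodine receptor Ryr2, the calcium pumps Atp2a2 and Atp2b1, and the store-operated entry genes Orai1 and Stim1. Probes were assigned by their transcript accession, and 9 of the 10 genes had at least 1 probe (14 probes in all) among the 15163 rat gene symbols of the array. No probe was matched to Cacna1d, which is not analysed here. Each gene was compared between sham, BPH and BPH+ghrelin prostates.

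RNA of prostates from male Sprague Dawley rats had been hybridised to 9 one-colour Agilent arrays, with 3 arrays per group. Rats of the sham group had a sham operation and received corn oil under the skin and water by mouth. Rats of the BPH group (benign prostatic hyperplasia) were castrated and received dihydrotestosterone under the skin, 3 mg/kg daily for 4 weeks, and water by mouth. Rats of the BPH+ghrelin group received the same and, for the last 2 weeks, rat ghrelin by mouth, 20 nmol/kg daily (a figure legend of the study gives another dose and route). Castration and dihydrotestosterone are therefore shared by both BPH groups, and neither can be told apart from the other against sham. Which of the rats of a group were used for the arrays is not given. The p-values of the main fit rest on the spread within groups, pooled over these 9 arrays, and cover no other rats.

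In smooth muscle, depolarisation opens L-type calcium channels, and receptors coupled to phospholipase C, including the α1-adrenoceptors of the prostate, form IP3, which releases calcium from the sarcoplasmic reticulum through the IP3 receptors. Ryanodine receptors are a further release pathway of the same store. The sarcoplasmic reticulum pump Atp2a2 (SERCA2) refills the store and the plasma membrane pump Atp2b1 (PMCA1) removes calcium from the cell. When the store is empty, its sensor Stim1 opens the plasma membrane channel Orai1.

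Among the 9 measured genes, Ryr2 was lower in both BPH groups than in sham, and Stim1 was higher in BPH+ghrelin than in sham. None of the 9 differed between BPH+ghrelin and BPH after adjustment. The promoters of Ryr2 and Stim1 are shown because they are the members with a difference that passed the test. None of these differences passed with scan batch as a block, as given below. The promoter of Itpr1 is shown because both of its probes were lower on all BPH+ghrelin arrays than on all BPH arrays. In that comparison 39.2% of all genes did not overlap, in either direction. The sequences are the 250 bases before the start site, from RefSeq (build GRCr8), and capitals mark matches, on either strand, to 5 motifs searched: the CArG box of smooth muscle genes, by its name, the androgen receptor half-site (TGTTCT), the TATA box (TATAAA), the CAAT box (CCAAT) and the GC box (GGGCGG).
Ryr2, chr17:63081277-63081526, plus strand: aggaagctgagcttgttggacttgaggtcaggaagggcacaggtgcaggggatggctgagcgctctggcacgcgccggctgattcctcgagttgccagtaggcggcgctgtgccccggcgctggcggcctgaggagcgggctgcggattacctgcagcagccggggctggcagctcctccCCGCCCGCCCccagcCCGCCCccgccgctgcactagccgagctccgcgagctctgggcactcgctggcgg
Stim1, chr1:166067964-166068213, plus strand: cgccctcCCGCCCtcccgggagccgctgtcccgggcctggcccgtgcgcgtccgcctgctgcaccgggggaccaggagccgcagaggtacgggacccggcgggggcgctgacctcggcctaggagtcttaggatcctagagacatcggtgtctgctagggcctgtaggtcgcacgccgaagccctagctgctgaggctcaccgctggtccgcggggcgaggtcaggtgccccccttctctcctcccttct
Itpr1, chr4:142743190-142743439, plus strand: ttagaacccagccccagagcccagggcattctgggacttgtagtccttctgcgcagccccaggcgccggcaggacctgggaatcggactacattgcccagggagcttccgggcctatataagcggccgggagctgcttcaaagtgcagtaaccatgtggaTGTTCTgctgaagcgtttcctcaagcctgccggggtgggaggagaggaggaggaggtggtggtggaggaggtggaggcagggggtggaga
The Ryr2 promoter held 3 matches to the GC box, of which a pair overlap, and the Stim1 promoter held 1, at 243 bases before the start. The Itpr1 promoter held 1 match to the half-site, at 90 bases before the start. Of all 33469 promoters of this length, 30.5% held a GC box, 17.5% the half-site, 34% a CAAT box, 12.9% a TATA box and 1.5% a CArG box. No CArG, TATA or CAAT box was found in these windows, which says only that these letters are not in them.

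All levels are quantile normalised log2 intensities, and differences are differences of group means on that scale. A gene was called when limma, fitted on all genes above background, gave a Benjamini-Hochberg adjusted p under 0.05. In the comparison of BPH with sham this held for 1 of the 9 members, which was lower, where 4.34% of all 19552 genes tested were called and 2.18% were called lower. It held for 0 of 9 in BPH+ghrelin against BPH, where 1.48% of 19749 genes were called. It held for 2 of 9 in BPH+ghrelin against sham, 1 in each direction, where 6.29% of 19197 genes were called, 2.99% higher and 3.3% lower. At an unadjusted p under 0.05 there were 2 members in BPH against sham (26.5% of all genes), 3 in BPH+ghrelin against BPH (21.1%) and 5 in BPH+ghrelin against sham (23.7%). The comparisons share arrays: both comparisons with sham use the same 3 sham arrays.

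Signal differed between arrays. Sham replicate 2 had the lowest raw median intensity (40.9, against 73.3 to 133 on the other arrays) and 61.4% of probes well above background (69.5% to 75.05% on the others), and members that were dim on it are given without it below. Arrays with one recorded scan time were taken as a scan batch: the 3 BPH arrays and BPH+ghrelin replicate 1 formed one, sham replicates 1 and 2 with BPH+ghrelin replicates 2 and 3 another, and sham replicate 3 was scanned alone. BPH and sham arrays thus shared no scan batch, and scan batch and group cannot be told apart within that pair. The labelled tissue was checked with marker genes: 11 of 12 smooth muscle markers were measured and passed the background filter, as did 8 of 8 secretory epithelium markers. Of the latter, 4 were higher and 4 lower in BPH than in sham (1 called higher and 2 lower), 2 were higher and 6 lower in BPH+ghrelin than in BPH (1 called, higher), and 2 were higher and 6 lower in BPH+ghrelin than in sham (1 called higher and 3 lower). In BPH against sham 3 of 3 basal epithelium (1 called) and 6 of 6 fibroblast markers (0 called) were higher. In BPH+ghrelin against BPH 5 of 6 fibroblast markers were lower (1 called), and immune markers were 2 higher and 2 lower (1 called, lower). In BPH+ghrelin against sham 3 of 3 endothelium and 4 of 4 immune markers were lower (1 called in each). Fibroblast markers were 4 higher and 2 lower there (1 called, lower). Of all genes, 53.7% were higher in BPH against sham, 48.3% lower in BPH+ghrelin against BPH and 45.5% lower in BPH+ghrelin against sham. The shares of all genes called were 4.34%, 1.48% and 6.29%. The part of all these markers in the differences of the members was not tested.

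**Figure D1:**
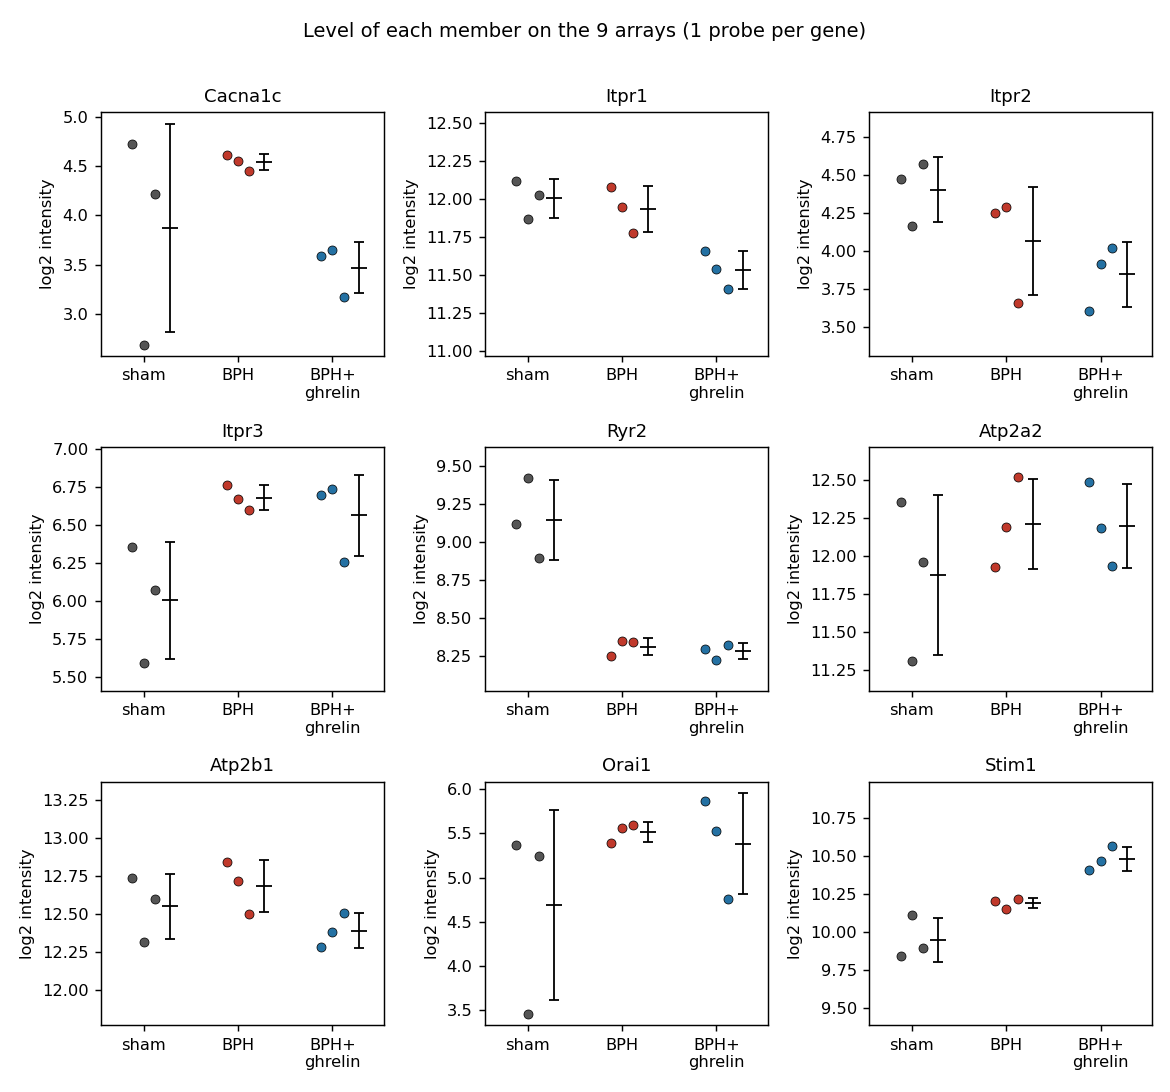
Log2 intensity (y axes, which differ between panels) of the 9 measured members on the 3 arrays of each group, with the mean and SD beside the points. The 3 sham arrays of Ryr2 lie above all 6 others, the 3 BPH+ghrelin arrays of Stim1 lie above all 6 others, and sham replicate 2 is the lowest point of Cacna1c, Itpr3, Atp2a2 and Orai1.

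The ryanodine receptor Ryr2, a calcium release channel of the sarcoplasmic reticulum best known from the heart, had log2 levels of 9.12, 9.42 and 8.90 in sham, 8.25, 8.35 and 8.34 in BPH, and 8.30, 8.22 and 8.33 in BPH+ghrelin. Every sham array was above every array of the other groups, and the latter spanned a narrow range. Ryr2 fell by 0.83 in BPH against sham (SE 0.147, 0.561-fold, limma adjusted p = 0.0249) and by 0.86 in BPH+ghrelin against sham (SE 0.147, 0.549-fold, limma adjusted p = 0.0170). Between BPH+ghrelin and BPH its difference was -0.03 (95% CI -0.37 to 0.31, limma adjusted p = 0.923). The exact permutation p of 3 against 3 arrays was 0.1 for both comparisons with sham, which is the smallest this design allows.

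The size of the Ryr2 difference was similar where arrays shared a scan batch: BPH+ghrelin replicates 2 and 3 differed from sham replicates 1 and 2 by -1.0, and BPH+ghrelin replicate 1 differed from the BPH arrays of its scan batch by -0.02. With scan batch as a block neither call against sham held (-0.98, limma adjusted p = 0.484 in BPH and -1.0, 0.0997 in BPH+ghrelin), and that in BPH was also lost on the 6 arrays compared (0.102). For BPH+ghrelin the block returns the within-batch differences above, so it is no separate check of their size. BPH and sham are compared under it only through the BPH+ghrelin arrays, of which replicate 1 alone shared the batch of BPH. Without sham replicate 2, Ryr2 differed by -0.69 in BPH against sham (limma adjusted p = 0.0214). The call in BPH against sham was lost without BPH replicate 1 (adjusted p = 0.0578), replicate 2 (0.121) or replicate 3 (0.0709), at differences of -0.80 to -0.85. The call in BPH+ghrelin against sham was lost without BPH+ghrelin replicate 1 (adjusted p = 0.0569) or replicate 2 (0.0921). The other Ryr2 probe, for another transcript accession, was not well above background on any of the 9 arrays.

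Markers of striated muscle were set beside Ryr2. The list was mainly of skeletal muscle genes and held none particular to the heart. Of 10 striated muscle markers tested, 8 were lower and 2 higher in BPH than in sham, where 53.7% of all genes were higher. Of the 10, 3 were called lower (2.18% of all genes): Ckm (muscle creatine kinase, -1.90), Mb (myoglobin, -0.94) and Tnni2 (fast troponin I, -1.37). The summed intensity of the 10 markers was 3867, 4085 and 3759 in sham, 1622, 2791 and 3915 in BPH, and 2518, 2491 and 2302 in BPH+ghrelin. The sum of BPH replicate 3 lay within the sham range, and most of it came from Tnnc2 (fast troponin C, log2 level 11.41 on this array). Ckm (5.23), Mb (8.96) and Tnni2 (6.91) lay below every sham array on it, Acta1 (8.53) and Myh2 (5.74) lay above every sham array, and the other markers lay within the sham range. The part of striated muscle in the Ryr2 difference was not tested. In whole prostate RNA, fewer cells of a type and less RNA per cell cannot be told apart, which holds for all differences given here.

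The genes most alike to Ryr2 over the 9 arrays, by the root mean square difference of log2 values centred on each gene's mean, were Prlhr (0.091), Zfp112 (0.121) and Otop3 (0.121), where the median over all genes was 0.552. All 3 had higher levels on each sham array than on each other array, as Ryr2 had. They were picked by likeness on these same arrays, so this shared pattern adds nothing on the Ryr2 difference. For Itpr3 they were Kcnk12 (0.099), Gatm (0.1001) and Prr5 (0.104), and for Itpr2 they were Clybl (0.109), Ctbp2 (0.129) and Kcnab1 (0.130). For these last members the median over all genes was 0.455 and 0.459.

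Stim1, the calcium sensor of the store membrane, had log2 levels of 9.84, 10.11 and 9.89 in sham, 10.20, 10.15 and 10.21 in BPH, and 10.41, 10.47 and 10.56 in BPH+ghrelin. The 3 groups followed one another without overlap in that order. Stim1 was higher by 0.54 in BPH+ghrelin than in sham (SE 0.117, 1.45-fold, limma adjusted p = 0.0374). The 2 steps in between did not pass the test, with a difference of 0.25 in BPH against sham (95% CI -0.03 to 0.52, adjusted p = 0.224) and of 0.29 in BPH+ghrelin against BPH (95% CI 0.02 to 0.56, adjusted p = 0.214).

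In the scan batch with arrays of both groups, Stim1 was higher by 0.54 in BPH+ghrelin than in sham, and in that of the BPH arrays BPH+ghrelin replicate 1 was higher by 0.22. The call against sham was lost with scan batch as a block (limma adjusted p = 0.266), on the 6 arrays compared (0.0770) and without a filter (0.0574). Without sham replicate 2 the difference from sham was 0.62 (limma adjusted p = 0.0158). The call was also lost without sham replicate 1 (adjusted p = 0.0596), sham replicate 3 (0.146) or BPH+ghrelin replicate 1 (0.0836), replicate 2 (0.144) or replicate 3 (0.110), at differences of 0.48 to 0.57.

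Orai1, the channel that Stim1 opens, had log2 levels of 5.37, 3.45 and 5.24 in sham, 5.39, 5.56 and 5.60 in BPH, and 5.87, 5.52 and 4.75 in BPH+ghrelin. The BPH arrays lay just above the 3 sham arrays, among which sham replicate 2 stood apart and was not well above background. Its difference was 0.83 in BPH against sham (95% CI -0.32 to 1.98, limma adjusted p = 0.319), 0.21 without sham replicate 2 and 0.37 with scan batch as a block. It was 0.22 in the same comparison with normexp, a background correction of the raw signals with an added offset of 50. Between BPH+ghrelin and BPH it was -0.13 (95% CI -1.29 to 1.02), an interval wide enough to hold a 2-fold change in either direction.

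**Figure D2:**
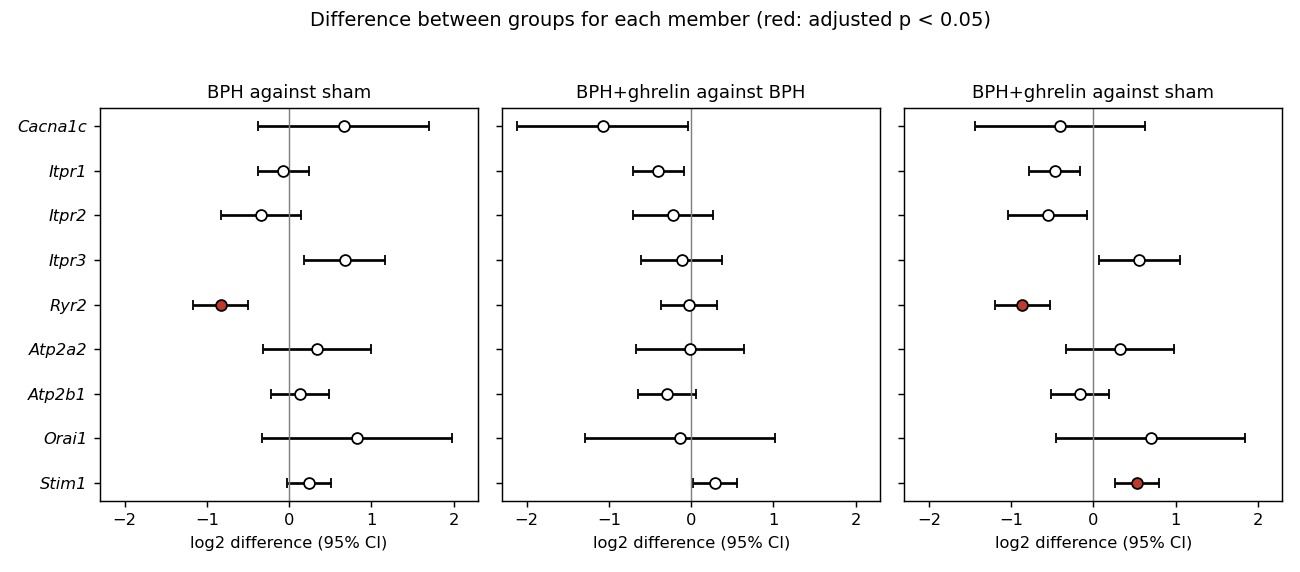
Log2 difference of group means (x axes) of the 9 members in the 3 comparisons, with 95% confidence intervals from limma, filled red points have an adjusted p under 0.05. Only Ryr2 in both comparisons with sham and Stim1 in BPH+ghrelin against sham are filled, and no point is filled in BPH+ghrelin against BPH.

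The 3 IP3 receptors did not move as a group. From BPH to BPH+ghrelin all 3 had differences below 0 (-0.40, -0.22 and -0.12 for Itpr1, Itpr2 and Itpr3), and none passed the test. Against sham, BPH+ghrelin had differences of -0.47 for Itpr1 and -0.56 for Itpr2 but of 0.56 for Itpr3. Over the 16 alternatives of the processing these ran from -0.54 to -0.40, from -0.70 to -0.15 and from 0.28 to 0.73.

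Itpr1, the main IP3 receptor of many smooth muscles, had 2 probes above background on all arrays. The brighter probe had log2 levels of 12.12, 11.87 and 12.02 in sham, 12.08, 11.94 and 11.78 in BPH, and 11.66, 11.54 and 11.41 in BPH+ghrelin. All BPH+ghrelin arrays lay below all other arrays, while sham and BPH overlapped. The differences were -0.07 in BPH against sham, -0.40 in BPH+ghrelin against BPH (SE 0.135, limma adjusted p = 0.158) and -0.47 in BPH+ghrelin against sham (SE 0.134, adjusted p = 0.0781, and 0.0480 without sham replicate 2). Over the 16 alternatives the difference between BPH+ghrelin and BPH ran from -0.52 to -0.17 and passed the test in 0 of them.

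The dimmer Itpr1 probe also placed BPH+ghrelin lowest, while its BPH mean lay above its sham mean. Its log2 levels were 9.41, 9.55 and 9.44 in sham, 9.68, 9.59 and 9.47 in BPH, and 9.08, 8.97 and 8.80 in BPH+ghrelin, again with the BPH+ghrelin arrays below all others. In a fit over all probes its differences were 0.12 in BPH against sham, -0.63 in BPH+ghrelin against BPH (limma adjusted p = 0.0555) and -0.52 in BPH+ghrelin against sham (adjusted p = 0.0492). Lower values in BPH+ghrelin without overlap were thus read by both probes, and only the last of these differences passed the test. Within scan batches the brighter probe differed by -0.52 between BPH+ghrelin and sham and by -0.28 between BPH+ghrelin replicate 1 and BPH.

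Itpr2, an IP3 receptor subtype that is also found in epithelium, was near the background limit, with log2 levels of 4.47, 4.17 and 4.58 in sham, 4.25, 4.29 and 3.66 in BPH, and 3.61, 3.92 and 4.02 in BPH+ghrelin. BPH overlapped with both other groups, whereas sham and BPH+ghrelin did not overlap. The difference was -0.56 in BPH+ghrelin against sham (SE 0.210, unadjusted p = 0.0287 and adjusted p = 0.154 by limma). It was -0.15 with normexp and -0.35 with scan batch as a block.

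Itpr3, the subtype typical of secretory epithelium, had log2 levels of 6.35, 5.59 and 6.07 in sham, 6.76, 6.67 and 6.60 in BPH, and 6.69, 6.74 and 6.25 in BPH+ghrelin. All BPH arrays were above all sham arrays, and sham replicate 2 was again the lowest. The difference was 0.68 in BPH against sham (SE 0.215, unadjusted p = 0.0135 and adjusted p = 0.106 by limma), 0.47 without sham replicate 2, 0.35 with normexp, and 0.85 without sham replicate 1 (adjusted p = 0.0374).

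Cacna1c, the pore subunit of the main L-type calcium channel of smooth muscle, was read by 2 probes that went in opposite directions. The probe with the higher mean, which was spotted 10 times on each array, had log2 levels of 4.72, 2.68 and 4.21 in sham, 4.61, 4.56 and 4.46 in BPH, and 3.59, 3.65 and 3.17 in BPH+ghrelin. Its BPH+ghrelin arrays lay below its BPH arrays. The difference between BPH+ghrelin and BPH was -1.07 (95% CI -2.11 to -0.03, 0.475-fold, limma unadjusted p = 0.0446, adjusted p = 0.225). It was -0.20 with normexp and -0.08 as the mean of both probes, and it passed the test when the 6 arrays compared were normalised and fitted alone (adjusted p = 0.0230). Sham replicate 2 was not well above background for this probe, and without it the difference between BPH+ghrelin and sham moved from -0.40 to -1.0 (adjusted p = 0.0275).

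The other Cacna1c probe, for the same transcript accession, had log2 levels of 3.27, 3.21 and 3.79 in sham, 3.08, 3.09 and 3.40 in BPH, and 4.27, 3.97 and 4.06 in BPH+ghrelin. Here the BPH+ghrelin arrays lay above all other arrays. Its difference was 0.91 in BPH+ghrelin against BPH (SE 0.189, limma adjusted p = 0.0610 over all probes) and 0.68 in BPH+ghrelin against sham (adjusted p = 0.0762). Both probes were dim, on each 1 of the sham arrays was not well above background, and no direction is therefore given for Cacna1c. Probe sequences were not used here, and what part of the transcript each probe reads was not tested.

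**Figure D3:**
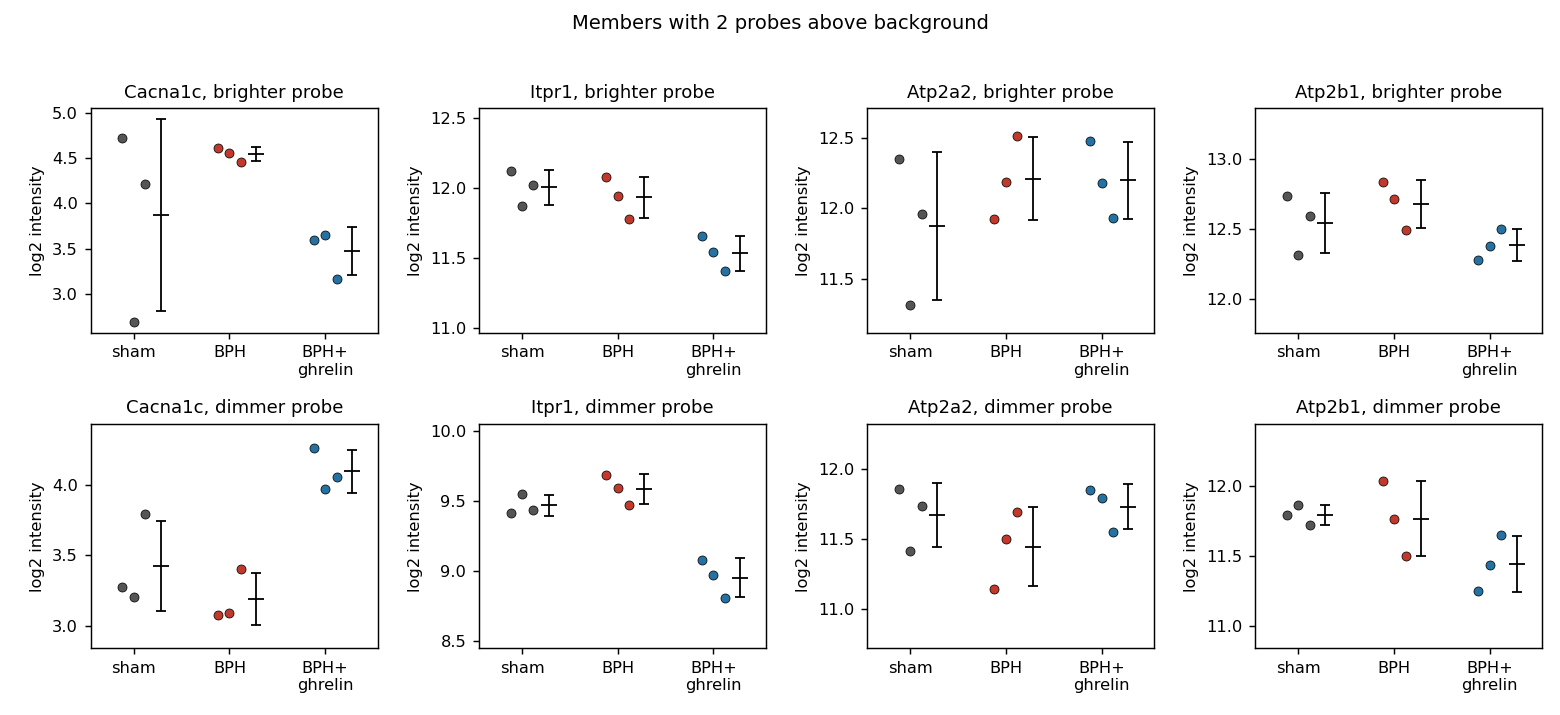
Log2 intensity of both probes of the 4 members with 2 probes above background, by group, with the mean and SD beside the points. The BPH+ghrelin arrays are lowest with both Itpr1 probes, and lie below BPH with 1 Cacna1c probe and above BPH with the other.

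The calcium pumps showed no difference that passed the test. Atp2a2, which pumps calcium into the store, had log2 levels of 12.35, 11.31 and 11.96 in sham, 11.93, 12.19 and 12.52 in BPH, and 12.49, 12.18 and 11.93 in BPH+ghrelin, with overlap of all groups. Its difference was 0.34 in BPH against sham (95% CI -0.32 to 0.99), 0.05 without sham replicate 2, and -0.01 in BPH+ghrelin against BPH (95% CI -0.67 to 0.64). Its other probe, for another transcript accession, differed by -0.22 and 0.29 in these comparisons.

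Atp2b1, which exports calcium from the cell, had log2 levels of 12.74, 12.31 and 12.59 in sham, 12.84, 12.71 and 12.50 in BPH, and 12.28, 12.38 and 12.51 in BPH+ghrelin. All groups overlapped. The difference between BPH+ghrelin and BPH was -0.30 (95% CI -0.65 to 0.06, limma adjusted p = 0.309), and the other Atp2b1 probe gave -0.32.

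Over the members, 6 were higher and 3 lower in BPH than in sham (median difference 0.25), where 53.7% of all genes were higher and the median of all genes was 0.04. With BPH+ghrelin against BPH, 1 was higher and 8 were lower (median -0.13), where 48.3% of all genes were lower and their median was 0.02. With BPH+ghrelin against sham, 4 were higher and 5 lower (median -0.16), where 45.5% of all genes were lower. These counts take Cacna1c by its brighter probe, and its other probe had the opposite sign in each comparison. With the mean of probes the splits were 7 higher and 2 lower, 2 higher and 7 lower, and 5 higher and 4 lower, so that the majority turned in BPH+ghrelin against sham. The split of BPH+ghrelin against BPH turned to 3 higher and 6 lower when arrays were scaled to their 75th percentile or background-corrected with normexp, and to 4 higher and 5 lower with scan batch as a block or without BPH+ghrelin replicate 3. Values without overlap between the groups were found for 4 members in BPH against sham (31.3% of all genes), for 3 in BPH+ghrelin against BPH (39.2%) and for 4 in BPH+ghrelin against sham (30.4%), which is near the share of all genes.

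Smooth muscle markers were set beside these values. Of 11 markers, 9 were higher and 2 lower in BPH than in sham, and none passed the test (53.7% of all genes were higher and 4.34% were called). Between BPH+ghrelin and BPH 10 of 11 were lower (median -0.49), and 1 passed the test, Myh11 (smooth muscle myosin heavy chain, -0.96, limma adjusted p = 0.0157). Of all genes, 48.3% were lower and 1.48% were called in that comparison. In BPH+ghrelin against sham 10 of 11 were lower (median -0.29), and Myh11 alone passed the test (-1.07, limma adjusted p = 0.00245). There 45.5% of all genes were lower and 3.3% were called lower. The mean difference of the markers was 0.19, -0.54 and -0.35 in the 3 comparisons. The summed intensity of the 11 markers was 45091 to 60147 in sham, 40619 to 69680 in BPH and 46082 to 50163 in BPH+ghrelin, so that the ranges overlapped. Mylk (myosin light chain kinase) made the largest part of these sums, with mean log2 levels of 14.70, 14.78 and 14.82. It was the 1 marker that was not lower in BPH+ghrelin than in BPH (0.05), so the sums show little of the other markers. In the comparison of BPH+ghrelin with BPH, in which the markers were lower, Stim1 differed by 0.29 and Itpr1 by -0.40, and neither passed the test. The part of smooth muscle content in the differences of the members was not tested.

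**Figure D4:**
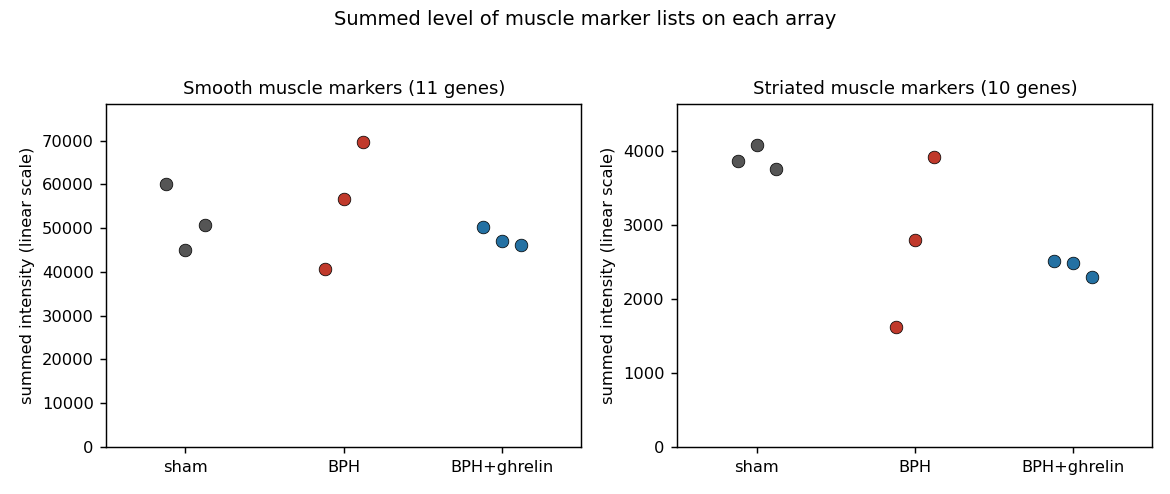
Summed intensity (linear scale, y axes from 0) of 11 smooth muscle markers and of 10 striated muscle markers on each array. The smooth muscle sums of the 3 groups overlap, with Mylk as their largest part. The striated muscle sums of sham lie above all other arrays except BPH replicate 3.

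The wider calcium machinery was followed with a list of 59 further genes, of which 53 had a probe and 40 to 42 passed the background filter. In BPH against sham 21 of 41 were higher and 20 lower, and 1 was called, lower (4.34% of all genes were called). For BPH+ghrelin against BPH 19 of 42 were higher and 23 lower, and 0 were called by limma (1.48% of all genes), with 3 higher and 8 lower at an unadjusted p under 0.05, a threshold that 21.1% of all genes passed. For BPH+ghrelin against sham 19 of 40 were higher and 21 lower, and 1 was called higher and 4 lower (6.29% of all genes were called). Of these 5 calls, those of Cacnb1 and Trpc6 held on the 6 arrays compared, that of Cacnb1 without a filter, and those of Cacnb1 and Irag1 with normexp. With scan batch as a block none of the list was called in any comparison. The medians (0.04, -0.03 and -0.01) were near 0, as were those of all genes.

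Of the voltage-gated channel subunits, 1 of 10 was called lower in BPH against sham (2.18% of all genes) and 2 of 10 in BPH+ghrelin against sham (3.3% of all genes). Cacna1s, the L-type pore subunit of skeletal muscle, had log2 levels of 4.74, 4.41 and 4.34 in sham, 3.00, 3.04 and 3.16 in BPH, and 2.68, 3.72 and 3.69 in BPH+ghrelin. All sham arrays lay above all others. It fell by 1.43 in BPH (SE 0.27, limma adjusted p = 0.0321) and by 1.13 in BPH+ghrelin (SE 0.27, adjusted p = 0.0490) against sham. Within scan batches, BPH+ghrelin replicates 2 and 3 differed from sham replicates 1 and 2 by -0.87, and BPH+ghrelin replicate 1 differed from BPH by -0.39. With normexp, which started from the raw signals and added an offset of 50, the differences from sham were -0.23 and -0.20 and were not called. Leaving out any BPH array or sham replicate 3 ended the call in BPH (adjusted p = 0.0713, 0.141, 0.0849 and 0.0986). The call in BPH+ghrelin was lost on leaving out any single array of both groups, at adjusted p of 0.0572 to 0.124.

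Cacnb1, the β subunit of the skeletal muscle channel, had log2 levels of 6.17, 6.02 and 6.15 in sham, 5.82, 5.58 and 5.27 in BPH, and 5.16, 5.32 and 5.30 in BPH+ghrelin. Sham lay above both other groups. Cacnb1 fell by 0.85 in BPH+ghrelin against sham (SE 0.16, limma adjusted p = 0.0214) and differed by -0.56 in BPH against sham (adjusted p = 0.0800). With normexp these differences were -0.37 (adjusted p = 0.0126) and -0.25 (0.0480). Its call was lost without sham replicate 3 (adjusted p = 0.0937) or any BPH+ghrelin array (0.0737, 0.0913 and 0.0589). Of 9 striated muscle markers tested in BPH+ghrelin against sham, 7 were lower and 2 higher, and 3 passed the test, all lower. Of all genes, 45.5% were lower and 3.3% were called lower. The part of these markers in the Cacnb1 difference was not tested.

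Among genes of store release, 2 of 6 were called lower in BPH+ghrelin against sham, as were 3.3% of all genes. Irag1, the IP3 receptor associated substrate of cGMP-dependent kinase that restrains calcium release, had log2 levels of 10.28, 9.66 and 10.07 in sham, 9.75, 9.45 and 9.23 in BPH, and 9.24, 9.14 and 8.96 in BPH+ghrelin. The BPH+ghrelin arrays lay below sham without overlap, at a difference of -0.89 (SE 0.20, limma adjusted p = 0.0390). Tmem38b, a potassium channel of the store membrane that balances charge during calcium release, had 7.56, 7.21 and 7.31 in sham, 7.40, 7.21 and 7.05 in BPH, and 6.83, 6.77 and 6.62 in BPH+ghrelin. Its difference from sham was -0.62 (SE 0.15, adjusted p = 0.0462), and -0.41 with normexp (adjusted p = 0.0506). Both calls were lost on leaving out sham replicate 1, sham replicate 3 or any BPH+ghrelin array, at adjusted p of 0.0620 to 0.138 for Irag1 and 0.0707 to 0.154 for Tmem38b.

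Of 8 genes of store-operated and receptor-operated entry, 7 were higher in BPH than in sham (median 0.42), where 53.7% of all genes were higher. At an unadjusted p under 0.05 there were 4 (26.5% of all genes), and 0 were called by limma. Trpc6, a cation channel opened by diacylglycerol downstream of phospholipase C, had log2 levels of 5.09, 5.44 and 5.02 in sham, 5.66, 5.70 and 6.12 in BPH, and 6.06, 5.88 and 5.99 in BPH+ghrelin. Sham lay below both other groups. Trpc6 was higher by 0.80 in BPH+ghrelin than in sham (SE 0.17, limma adjusted p = 0.0355) and differed by 0.65 in BPH against sham (adjusted p = 0.0714). The call was lost without sham replicate 1, sham replicate 3 or any BPH+ghrelin array (adjusted p of 0.0573 to 0.135), with scaling to the 75th percentile (0.0598), without a filter (0.0566), with scan batch as a block (0.302) and with normexp (0.0695, at a difference of 0.32).

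Store pumps, their inhibitors and store buffers held no called gene. In BPH against sham 6 of 9 were lower, where 53.7% of all genes were higher, and 5 of them had an unadjusted p under 0.05 (26.5% of all genes in either direction). Of these, 4 named after their values were seen were lower without overlap with sham (31.3% of all genes did not overlap, in either direction): the calcium buffers Casq2 (-0.72, adjusted p = 0.0635) and Hrc (-0.81, 0.0759) and the SERCA inhibitors Sln (-0.80, 0.0757) and Pln (-0.48, 0.140), all by limma. These genes are also known from striated muscle, of which 8 of 10 markers were lower in the same comparison (Ckm by -1.90, Tnni2 by -1.37), and the part of striated muscle was not tested. Atp2a3 (SERCA3), a pump of the same list, was above sham without overlap at a difference of 0.72 (limma adjusted p = 0.117). Its sham levels were 4.63, 3.59 and 4.36, lowest on sham replicate 2, and 2 of the 3 sham arrays were well above background. The differences of the 4 lower genes in BPH+ghrelin against BPH were 0.12, 0.68, 0.16 and -0.18. Plasma membrane pumps and exchangers had 4 of 4 lower in BPH+ghrelin than in BPH (median -0.66), where 48.3% of all genes were lower, and 0 were called by limma (1.48% of all genes). The 4 mitochondrial genes had 0 at an unadjusted p under 0.05 in any comparison (26.5%, 21.1% and 23.7% of all genes).

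**Figure D5:**
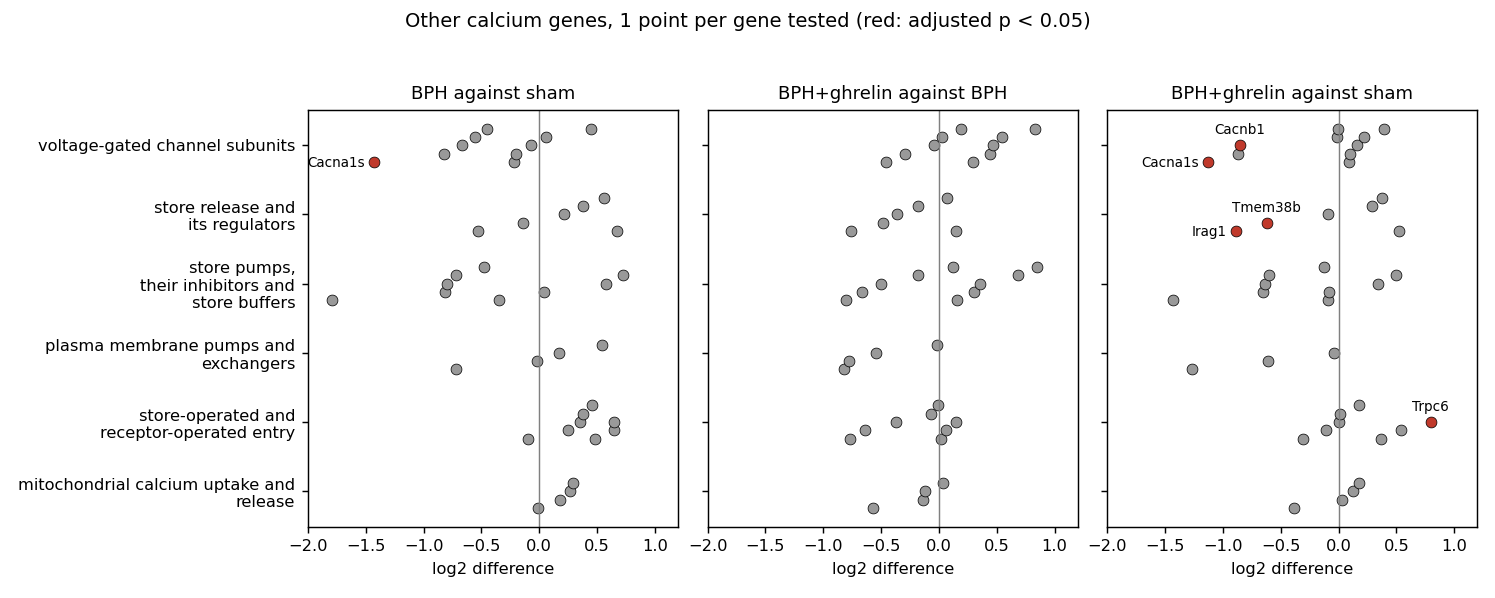
Log2 difference (x axes) of the further calcium genes tested in the 3 comparisons, 1 point per gene, arranged by role, the vertical offset within a role has no meaning, and red points with a name have an adjusted p under 0.05. Cacna1s is red in BPH against sham, no gene is red in BPH+ghrelin against BPH, and 5 are red in BPH+ghrelin against sham.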

How the data were processed

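Gene expression had been measured in 9 rat prostates with Agilent one-colour arrays. The intensities deposited by the authors came from Agilent Feature Extraction, which had processed the signal on a linear scale. The log2 matrix deposited by the authors, quantile normalised in GeneSpring per the methods, served as an alternative. Outlier spots were removed, spots of a probe averaged (30356 of 30367 probes kept), and log2 intensities quantile normalised over 9 arrays in R 4.3.3. Accessions were named through the RefSeq table of GRCr8, and an accession that matched no symbol was kept as a gene of its own, so that more genes were tested than have a symbol. The array annotation is of build rn4, so the table was used for names and promoters only.

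For each comparison, probes had to exceed background on 3 or more of its 6 arrays, and the brightest remaining probe stood for a gene. limma 3.58.1 (lmFit, eBayes, 3 groups, 9 arrays) was used, with adjustment over all genes, and was checked on simulated data. Named further calcium genes were those called, or at least 2-fold apart without overlap, and 5 store genes were named after their values were seen. The likeness search took the 3 members with the widest range of group means among those above background on all arrays. The members and lists were chosen with earlier results of these data known. Replicate numbers did not pair the arrays. The number of arrays limits the precision, and 0 spots were saturated.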

Additional observations from a re-analysis of the deposited data

How the results depend on the processing

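Each alternative changed one choice, with these exceptions. The 6 arrays compared were both normalised and fitted alone, and the deposited matrix replaced the whole processing of the intensities. Normexp started from the raw foreground and local background signals and also added an offset of 50. The trend and robust options of limma were switched on together. The count of members called was 0 (1 as reported) in BPH against sham with normalisation and fit on the 6 arrays compared and with scan batch as a block, and 0 to 2 on leaving out one array. It was 1 (0 as reported) in BPH+ghrelin against BPH on the 6 arrays compared, where 2106 of all 19749 genes were called, this member being Cacna1c. It was 1 (2 as reported) in BPH+ghrelin against sham on the 6 arrays compared and without a filter, 0 with scan batch as a block, and 0 to 4 on leaving out one array. The count of further calcium genes called in BPH against sham (1 as reported) was 4 with 75th percentile scaling, 3 with the filter on all 6 arrays, 2 with normexp and 0 with scan batch as a block, and 0 to 7 on leaving out one array. The 7 were called without sham replicate 1, a fit that called 3069 of all 19552 genes. For BPH+ghrelin against BPH (0 as reported) the count of further calcium genes was 7 on the 6 arrays compared, where 2106 of all 19749 genes were called. It was 1 with 75th percentile scaling and with the deposited matrix. For BPH+ghrelin against sham (5 as reported) it was 7 with 75th percentile scaling, 6 with the filter on all 6 arrays, 4 with trend and robust settings, 3 with normexp, 2 on the 6 arrays compared and without a filter and 0 with scan batch as a block, and 0 to 6 on leaving out one array. The cause of these changes was not tested. With scan batch as a block only 2, 2 and 85 of all genes were called in the 3 comparisons, against 849, 293 and 1207 as reported. On the 6 arrays compared these counts were 181, 2106 and 903. On leaving out one array they ran from 119 to 3069, from 3 to 396 and from 226 to 1927.

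With the replicate block, 0 members and 0 further calcium genes were called in each of the 3 comparisons. Arrays with the same number share only the number: the correlations of their deviations ran from -0.14 to 0.26. The adjusted p of Ryr2 with the replicate block was 0.0717 and 0.0535 against sham, and that of Stim1 was 0.0919.

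The 3 reported differences that passed the test among members (Ryr2 against sham in both BPH groups, Stim1 in BPH+ghrelin against sham) kept their direction under all 16 alternatives, at -0.98 to -0.69, -1.0 to -0.72 and 0.48 to 0.62. They passed the test in 10, 12 and 7 of them. Directions that reversed belonged to differences that had not passed the test. In BPH against sham, Atp2a2 was -0.048 with scan batch as a block and -0.22 with its other probe, Atp2b1 was -0.072 with 75th percentile scaling and -0.026 with its other probe, Itpr1 was 0.023 with the mean of probes and 0.12 with its other probe, Itpr2 was 0.11 with scan batch as a block, and Cacna1c was -0.23 with its other probe. On leaving out one array, Itpr1 ranged from -0.14 to 0.0061. For BPH+ghrelin against BPH, Atp2a2 was 0.25 with 75th percentile scaling, 0.14 with the mean of probes, 0.0043 with normexp, 0.27 with scan batch as a block and 0.29 with its other probe, Atp2b1 was 0.0052 with 75th percentile scaling, Ryr2 was 0.022 with normexp, Cacna1c was 0.91 with its other probe, and Itpr3, Orai1 and Cacna1s were 0.015, 0.36 and -0.39 with scan batch as a block. On leaving out one array, Atp2a2 ranged from -0.15 to 0.14, Itpr3 from -0.21 to 0.037 and Orai1 from -0.38 to 0.18. For BPH+ghrelin against sham, Cacna1c was 0.14 with the mean of probes and 0.68 with its other probe, and ranged from -1.0 to 0.020 on leaving out one array. Scaling to the 75th percentile moved the median of all genes in BPH against sham from 0.04 to -0.09. The other probe and the within-batch differences are not listed among the 16 and were chosen after seeing the data. In both comparisons of BPH+ghrelin, the within-batch differences are the same as those with scan batch as a block, so they are no separate check. With that block, BPH and sham are compared only through the BPH+ghrelin arrays, of which replicate 1 alone shared the batch of BPH. Cacna1c, Itpr2 and Orai1 were dim, and their differences are limited by signal over background.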
